A study of Rattus norvegicus with 12 samples.

Results

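Amyloid-beta (Aβ) was compared with vehicle in the ribosome-enriched pellet of rat primary cortical neurons. The comparison holds 6 of the 12 RNA sequencing libraries of the study, chosen by their labels as the 3 Aβ and the 3 vehicle libraries of the pellet, and the other 6 libraries hold total RNA. The neurons came from embryonic day 18 Sprague-Dawley rat embryos. They were exposed for 24 h, up to 28 days in vitro, either to 100 nM of a synthetic rat Aβ preparation that included oligomers or to the HEPES vehicle. Both groups received cycloheximide, which freezes elongating ribosomes on their mRNA, before lysis, and the cytosolic lysate of both was centrifuged through a sucrose cushion to collect the pellet. The libraries are named here by the number in their sample name, 1, 5 and 9 for Aβ and 2, 6 and 10 for vehicle. Consecutive numbers fall into runs of 4, so that libraries 1 and 2, 5 and 6, and 9 and 10 each share a run with 2 libraries of total RNA. That a run marks one set of cultures is an assumption from the numbering. The paper describes the sequencing of total and ribosome-enriched RNA as paired and refers to biological replicates. The sources used here do not state which libraries shared a culture, so p-values may measure only the spread between these libraries. They also do not state which 3 samples of the study had the higher efficiency bead capture.

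A ribosome pellet collects mRNAs that carry ribosomes together with the ribosomes themselves, so the level of an mRNA in the pellet depends on both its abundance and the share of its copies that ribosomes occupy. In neurons this loading is controlled in part by FMRP, an RNA-binding repressor, and by its partner CYFIP1, which holds the cap-binding factor eIF4E away from initiation. Aβ is the peptide that builds up in Alzheimer disease plaques, and its oligomers act on synapses. The comparison asks which mRNAs differ in the pellet after exposure to Aβ. Because these are bulk samples, fewer cells of a type and less RNA per cell cannot be told apart.

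The authors deposited FPKM, the fragments of a gene adjusted for transcript length and library depth, for 25424 complete genes, 23702 with Ensembl rat identifiers and 1722 with identifiers of loci added during annotation. None of these identifiers could be paired with a gene symbol here (0 matches in the RefSeq table of GRCr8). Lists of FMRP targets, synaptic genes and cell type markers could therefore not be read, and the labelled cell type was not checked against its markers. The pellet libraries held 14.09 M to 20.04 M mapped fragments each, and 14138 genes were above 0 in all 6. The smallest level that counting error allows to be seen, set at 3 fragments for a 2000-base transcript, was 0.0749 to 0.106 FPKM. After scaling, the 11792 genes that averaged 1 FPKM or more in the pellet were compared on the log2(scaled FPKM + 1) scale, on which differences of weak genes are understated.

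No gene passed the test between Aβ and vehicle in the pellet. With limma and Benjamini-Hochberg adjustment, 0 of 11792 genes (0%) had an adjusted p under 0.05, and every adjusted p rounded to 1. At an unadjusted p under 0.05 there were 37 genes, 15 with a higher level after Aβ (0.127% of those tested) and 22 with a lower level (0.187%). With FPKM as deposited, without further scaling, this split turned to 20 higher and 11 lower. With the runs as a block the count rose to 142 genes, 68 higher and 74 lower, and 0 passed the adjusted threshold. The 37 genes were 0.314% of those tested and the 142 genes 1.2%. Both shares are below the 0.05 that such a threshold would pass if no gene differed. The voom method of limma on whole fragments also gave 0 genes at the adjusted threshold, with 11 at an unadjusted p under 0.05.

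The differences themselves were small for most genes. The middle 50% of the log2 differences, Aβ minus vehicle, lay between -0.11 and 0.12, and the 1st and 99th percentiles were -0.47 and 0.50. The median absolute difference was 1.08-fold in scaled FPKM + 1. The precision was limited by 3 libraries a group and by a fit without the runs, in which differences between runs counted as error. The median standard error was 0.22, and the 95% interval of a typical gene reached 0.52 on the log2 scale to either side. For 10092 genes (85.6%) the whole interval lay within 1 on this scale. With a pseudocount of 0.1, which shrinks the differences of weak genes less, it did so for 8453 genes (71.7%). Among the 8207 genes with at least 100 fragments in every pellet library the differences ran from -1.08 to 0.80, 93.2% of the intervals lay within 1, and 4 genes had an unadjusted p under 0.05. With the runs as a block, the median standard error over all tested genes was 0.15 and the typical interval reached 0.38 to either side. The whole interval then lay within 1 for 94.5% of genes.

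**Figure D1:**
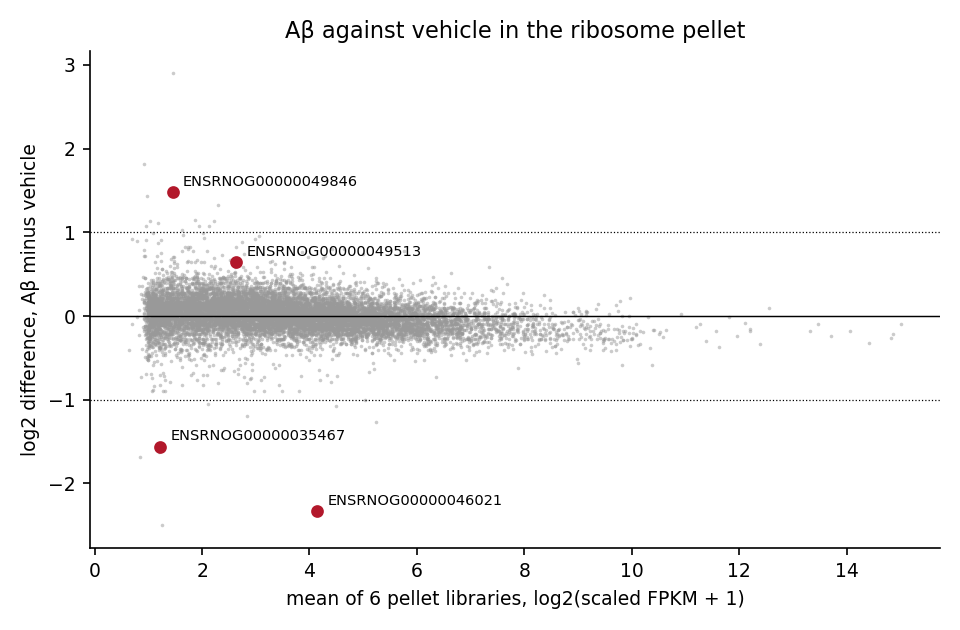
The log2 difference of each of the 11792 tested genes (vertical axis, Aβ minus vehicle, 3 libraries each) is plotted against its mean level in the 6 pellet libraries (horizontal axis, log2(scaled FPKM + 1)). Red points mark the 4 identifiers described in the text and dotted lines mark a difference of 1 either way. Most points lie close to 0, and 23 lie at or beyond the dotted lines, most of them at low levels.

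A difference of at least 1 on the log2 scale was found for 23 genes, 13 higher and 10 lower after Aβ. Of these, 15 had transcripts shorter than 200 bases and 13 had fewer than 100 fragments over the 6 libraries together, while for 1 neither could be recovered. A single pellet library held all fragments of 4 of the genes. They included the largest differences in either direction, 2.90 for a transcript with 347 fragments, all in Aβ library 9, and -2.50 for one with 149 fragments, all in vehicle library 10. The groups did not overlap for 5 of the 23 genes, against 268 of all 11792 tested. Picking genes by a large difference itself favours groups that do not overlap. At least 100 fragments in every pellet library were held by 2 of the 23, against 8207 of all tested genes. The 37 genes with an unadjusted p under 0.05 were weak in the same way. Of them, 14 had transcripts shorter than 200 bases, against 1.2% of all tested genes, and 18 had fewer than 100 fragments in all, against 2.4% of tested genes. Reads counted for such short transcripts can come from other RNA that overlaps or resembles them. The strand setting of the authors' counting is not given in the sources used here.

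The clearest single difference was seen for ENSRNOG00000046021, with a transcript length of 892 bases, which was lower after Aβ. Its level, in scaled FPKM, was 4.51, 13.1 and 5.27 in Aβ libraries 1, 5 and 9, and 68.2, 36.8 and 22.5 in vehicle libraries 2, 6 and 10. All 3 Aβ libraries lay below all 3 vehicle libraries, and the largest gap was in the run of libraries 1 and 2. The mean was 7.63 ± 4.76 (SD, n = 3) after Aβ and 42.5 ± 23.4 (SD, n = 3) after vehicle. The log2 difference was -2.33 with a standard error of 0.46 and a 95% interval from -3.40 to -1.25, at an unadjusted p of 0.0011 and an adjusted p of 1 by limma. It was -1.66 without libraries 1 and 2. The gene rested on 63 to 832 fragments a library, which makes counting error small beside the spread between libraries. In total RNA the same gene had 22.9, 5.13 and 5.17 in Aβ libraries 3, 7 and 11, and 16.3, 18.2 and 27.7 in vehicle libraries 4, 8 and 12. These groups overlapped, because Aβ library 3 lay above vehicle libraries 4 and 8. The difference in total RNA was -1.13 at an unadjusted p of 0.0577, and the test of whether the pellet differed from total RNA in its response gave -1.22 at an unadjusted p of 0.141.

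ENSRNOG00000035467, with a transcript of 97 bases, had the smallest unadjusted p among the lower genes but rested on 16 fragments. It had 1, 1 and 0 fragments in Aβ libraries 1, 5 and 9, and 4, 4 and 6 in vehicle libraries 2, 6 and 10. The groups did not overlap, but each library held only a few fragments. Per mapped fragment the level was 7.44 times higher after vehicle, with a counting interval from 1.71 to 67.4 that leaves out the spread between libraries. The log2 difference was -1.56 with a standard error of 0.27, at an unadjusted p of 0.000408 and an adjusted p of 1 by limma. In total RNA the gene had 13, 5 and 2 fragments in Aβ libraries 3, 7 and 11, and 6, 6 and 1 in vehicle libraries 4, 8 and 12. The groups overlapped there, and the difference was 0.35 at an unadjusted p of 0.54. The difference between the pellet and total RNA responses was -1.98 at an unadjusted p of 0.0101 and an adjusted p of 1. Of all tested genes, only these 2 identifiers were lower after Aβ by at least 1 on the log2 scale in each of the 3 runs. By that much, 0 genes were higher in each run. Both identifiers were picked by their p in these same libraries, so this largely restates the selection and is no separate support.

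Among the higher genes the smallest unadjusted p belonged to ENSRNOG00000049846, with a transcript of 79 bases. It had 5, 6 and 4 fragments in Aβ libraries 1, 5 and 9, and 0, 2 and 1 in vehicle libraries 2, 6 and 10. The Aβ libraries lay above the vehicle libraries, again on very few fragments. Per mapped fragment the level was 4.71 times higher after Aβ, with a counting interval from 1.33 to 25.4. The log2 difference was 1.48 with a standard error of 0.34, at an unadjusted p of 0.00262 and an adjusted p of 1 by limma. In total RNA its mean level was 5.04 ± 0.901 scaled FPKM (SD, n = 3) after Aβ and 3.39 ± 1.34 (SD, n = 3) after vehicle, and the groups overlapped. The total RNA difference was 0.50 at an unadjusted p of 0.0589. The difference between the responses of the fractions was 1.06 at an unadjusted p of 0.0378 by limma, and it did not pass the adjusted threshold.

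ENSRNOG00000049513, with a transcript of 186 bases, was next among the higher genes. Its level in scaled FPKM was 7.55, 5.69 and 7.18 in Aβ libraries 1, 5 and 9, and 4.72, 3.2 and 4.15 in vehicle libraries 2, 6 and 10. All Aβ libraries lay above all vehicle libraries, with 10 to 23 fragments behind each value. The log2 difference was 0.64 with a standard error of 0.20, at an unadjusted p of 0.0132 and an adjusted p of 1 by limma. In total RNA the means were 7.23 ± 2.1 (SD, n = 3) after Aβ and 7.21 ± 1.83 (SD, n = 3) after vehicle, so the gene showed no such gap there. The difference between the responses of the fractions was 0.65 at an unadjusted p of 0.0572.

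**Figure D2:**
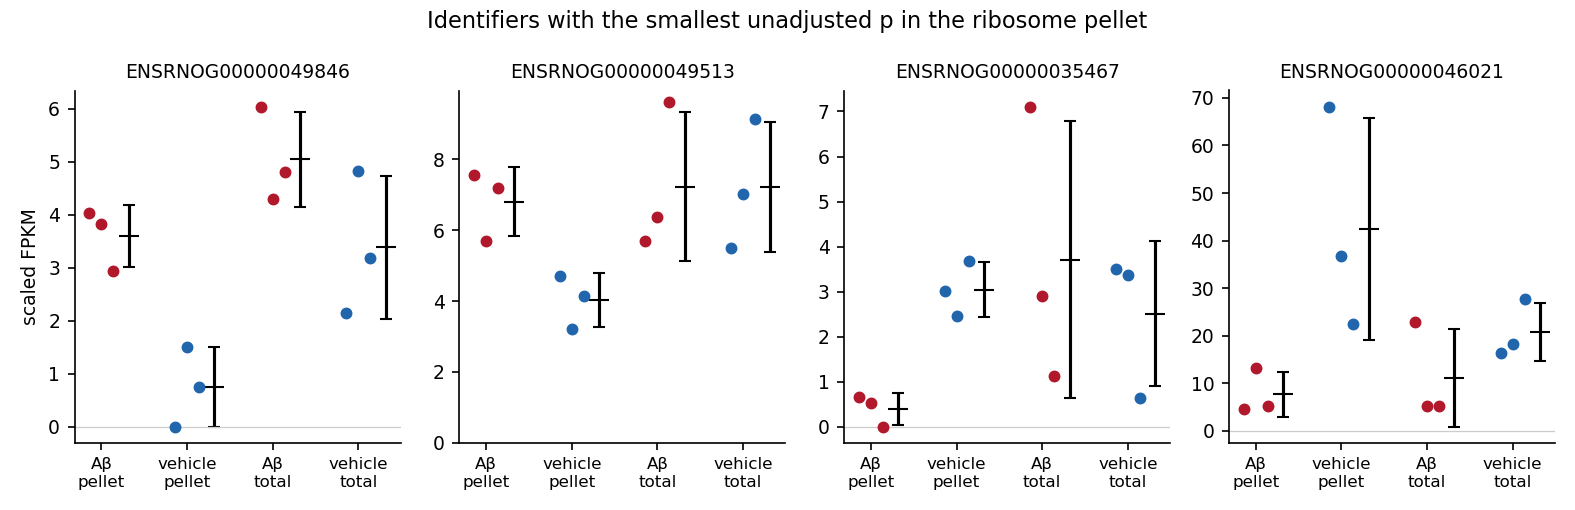
Each panel plots 1 identifier, with its level in scaled FPKM (vertical axis, a separate scale for each panel) in the 3 libraries of each group, Aβ in red and vehicle in blue, and the mean with its SD in black. In the pellet the groups do not overlap in any of the 4 panels, which is part of how these identifiers came to have the smallest p, while in total RNA they overlap in all 4.

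Over all tested genes the groups did not overlap for 268. Every Aβ library lay above every vehicle library for 131 genes (1.11%), and below for 137 (1.16%). The counts in the 2 directions were nearly equal. Within runs, the Aβ library was above its vehicle partner in all 3 runs for 1163 genes (9.86%) and below it in all 3 for 1177 (9.98%). If libraries were interchangeable, a gene without a difference would have groups that do not overlap, in either direction, with a probability of 0.1. For the same sign in all 3 runs, in either direction, that probability is 0.25. Both counts of genes were below these levels. A difference of at least 0.5 on the log2 scale with the same sign in all 3 runs was found for 7 genes higher and 10 lower after Aβ. For loci added during annotation the groups did not overlap for 2.47% of the 849 tested, against 2.26% of 10943 genes with Ensembl identifiers. An unadjusted p under 0.05 by limma was found for 6 of the 849 loci and 31 of the 10943 genes, against 0.314% of all tested. Whether the classes differ was not tested.

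Genes seen in every library of one treatment and in none of the other were few and weak. Of all genes listed, 21 were above 0 in all 3 Aβ libraries and listed at 0 in all 3 vehicle libraries, and 13 showed the opposite pattern. The first set rested on 3 to 8 fragments over the 6 libraries and reached at most 1.92 FPKM. The second rested on 5 to 12 fragments and reached at most 3.64 FPKM. Such counts are near the level at which a gene can be missed by counting error alone.

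In 2 of the 3 runs the libraries were more alike by run than by treatment. Across the tested genes, Pearson's r on the log2 scale was 0.992 between libraries 5 and 6 and 0.992 between libraries 9 and 10, which share a run and differ in treatment. Libraries of the same treatment from other runs had r of 0.936 to 0.973, and libraries that differed in both had r of 0.936 to 0.972. The pair of libraries 1 and 2 stood apart, with r of 0.964. Library 1 was closer to library 5 of the same treatment, at 0.973, and to vehicle library 6, at 0.972, than to its run partner, and library 2 had the lowest values with libraries 9 and 10. These are descriptions across genes, which share depth and length within a library and are not independent replicates.

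**Figure D3:**
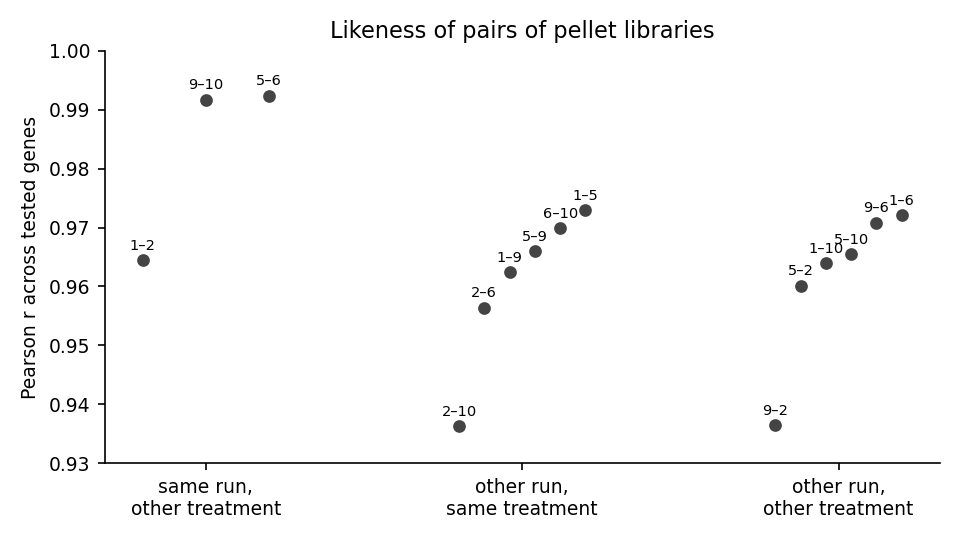
Each point is 1 of the 15 pairs of pellet libraries, marked with the library numbers, and the vertical axis is Pearson's r across the 11792 tested genes (the axis starts at 0.93). The 5–6 and 9–10 pairs lie above all others at 0.992, while pairs of the same treatment and pairs of other treatments from different runs span almost the same range.

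The same picture was seen when the sum of squares over all tested genes was divided between treatment, run and the remainder. Run took 69.1% with 2 degrees of freedom, treatment 9.38% with 1, and the remainder 21.5% with 2. Per degree of freedom the share of treatment was 9.38% and that of the remainder 10.8%, so treatment took no more than what was left unexplained. Without libraries 1 and 2 the shares with 1 degree of freedom each were 78.9% for run, 10.1% for treatment and 11% for the remainder. The genes with at least 100 fragments in every library gave 69.2%, 8.76% and 22%, so the balance did not rest on weak genes.

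Over all tested genes the differences between Aβ and vehicle showed almost no correlation between runs. The log2 differences across genes had r of -0.055 between runs 1 and 2, -0.069 between runs 1 and 3, and -0.043 between runs 2 and 3. All 3 values were close to 0. Their spread was unequal, with an SD over genes of 0.55 for library 1 minus 2, 0.24 for 5 minus 6 and 0.23 for 9 minus 10. A difference of at least 1 on the log2 scale in either direction was found for 786 genes in the run of libraries 1 and 2. They were 6.67% of all tested genes, 4.21% higher and 2.46% lower. The other runs had 58 genes (0.492%) and 53 genes (0.449%). Some of these large differences recurred. Runs 1 and 2 shared 13 genes in the same direction and 8 in the opposite one, so that the former were 1.65% of the run 1 genes and 22.4% of the run 2 genes. Runs 1 and 3 shared 14 in the same direction and 8 in the opposite one, 1.78% and 26.4% of their genes. Runs 2 and 3 shared 5 in the same direction and 1 in the opposite one, 8.62% and 9.43% of their genes. Among genes with at least 100 fragments in every library, 296, 5 and 3 genes differed by at least 1 in runs 1, 2 and 3. Of all such genes, 1.95% were higher and 1.66% lower by that much in run 1. Runs 1 and 2 shared 2 in the same direction, which is 40% of the run 2 genes. Runs 1 and 3 shared 2, which is 66.7% of the run 3 genes, and runs 2 and 3 shared 0. In the opposite direction 0 were shared.

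The run of libraries 1 and 2 carried a trend with transcript length that the other runs did not. With the genes divided into 10 groups by length, in the shortest group, of 724 bases or fewer, the median difference was -0.32 for library 1 minus 2, -0.01 for 5 minus 6 and 0.07 for 9 minus 10. In the longest group, of 4406 bases or more, these values were 0.21, -0.03 and 0.01. The 3 against 3 difference carried a weaker form of the trend, from -0.08 to 0.07. Both libraries of the run contributed. Measured from the mean of the 6 libraries, the shortest genes had a median of -0.20 in library 1 and 0.10 in library 2, and the longest genes 0.06 and -0.16. A trend with level went with it, since the median difference in the strongest of 10 groups by level was -0.33 for library 1 minus 2, -0.07 for 5 minus 6 and 0.07 for 9 minus 10. With the length trend of each library removed, a step added after the data were seen, 33 genes had an unadjusted p under 0.05 and 0 an adjusted p under 0.05. The cause of this trend was not tested.

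**Figure D4:**
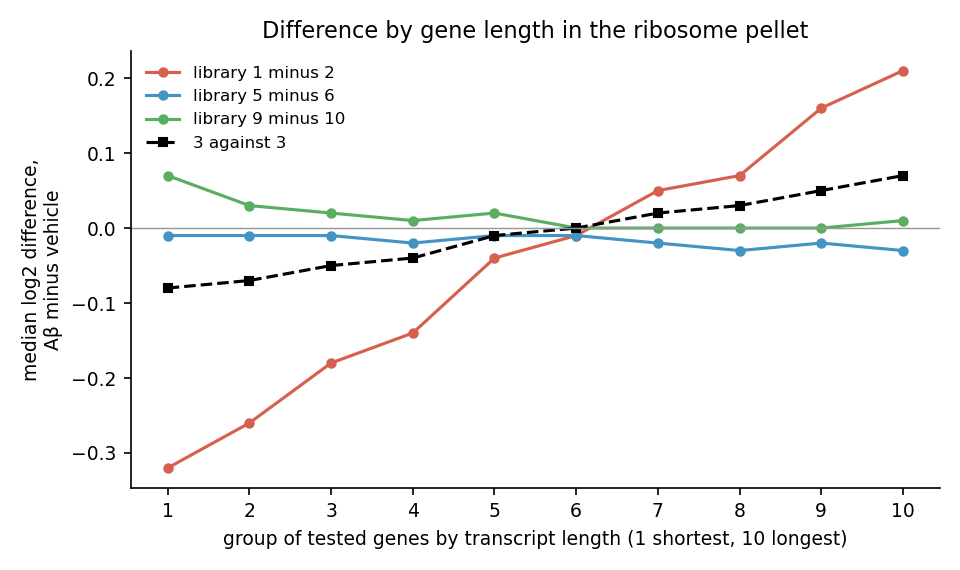
The tested genes are divided into 10 groups by transcript length (horizontal axis, 1 the shortest), and the vertical axis is the median log2 difference, Aβ minus vehicle, in each run (coloured lines) and for 3 against 3 libraries (dashed). Only the line of library 1 minus 2 climbs steeply, from -0.32 to 0.21, while the other 2 runs stay within 0.07 of 0.

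The composition of the pellet did not separate the treatments either. The gene with most fragments, of 1545 bases, took 4.78%, 5.7% and 6.56% of the listed fragments in Aβ libraries 1, 5 and 9, and 4.54%, 6.33% and 6.58% in vehicle libraries 2, 6 and 10. In both treatments the lowest value was in run 1 and the highest in run 3. The 20 genes with most fragments took 24% ± 3.84 (SD, n = 3) after Aβ and 25.3% ± 3.68 (SD, n = 3) after vehicle, with the lowest values in libraries 1 and 2. In total RNA this share was 8.87 to 9.61%, lower than in every pellet library. Picking genes by their fragments in the pellet itself favours such a gap. Of the 20 genes, 17 had a lower and 3 a higher mean level after Aβ, with differences from -0.37 to 0.18. This direction belonged to 2 of the runs, since 16 were lower in run 1, 18 in run 2 and 2 in run 3. None of the 20 had groups that did not overlap, and their smallest unadjusted p was 0.439.

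How far each library carried the difference between pellet and total RNA was measured as a slope. For each pellet library, its difference from the mean of total RNA was regressed on that of the other 5 pellet libraries, so that a value over 1 marks a library with a stronger pellet profile. The slope was 0.841, 1.13 and 0.714 in Aβ libraries 1, 5 and 9, and 1.24, 1.09 and 0.709 in vehicle libraries 2, 6 and 10. Libraries 9 and 10 were lowest and nearly equal, and libraries 1 and 2 were far apart. The groups overlapped, with means of 0.894 ± 0.211 and 1.01 ± 0.272 (SD, n = 3 each). In a 2-sided exact permutation test over the 6 libraries, p was 0.8 for this slope, 0.9 for the share of the first gene, 0.7 for that of the 20 genes and 0.6 for the number of genes above 0. After adjustment over these 4 measures by the Benjamini-Hochberg method each exact p became 0.9, and 3 against 3 libraries cannot give an exact p below 0.1. The number of genes above 0 was higher after Aβ in each run, at 15566 against 15079 in run 1, 16449 against 16170 in run 2 and 16521 against 16504 in run 3. An exact test of the 3 run differences, added after the data were seen, gave a p of 0.25, the smallest it can give, and 1 after adjustment over the 4 measures. The Aβ library was also the deeper one in each run. Mapped fragments were 14.31 M against 14.09 M in run 1, 20.04 M against 18.12 M in run 2 and 16.83 M against 15.96 M in run 3. Whether depth accounts for the higher number of genes was not tested.

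**Figure D5:**
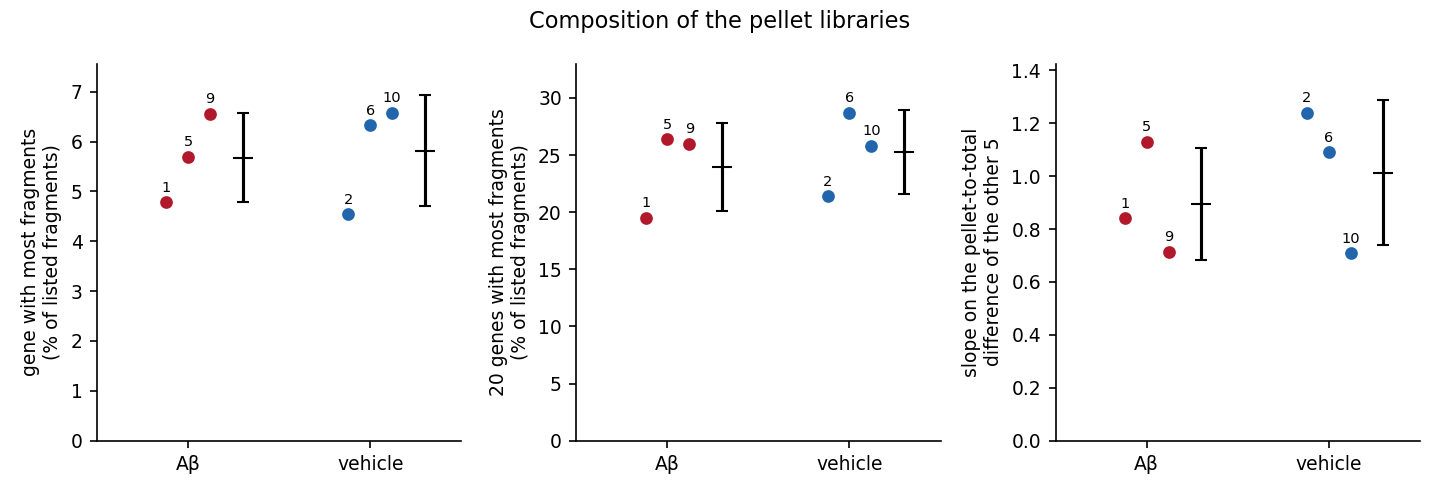
The panels plot, for the 3 Aβ (red) and 3 vehicle (blue) pellet libraries marked by number, the percent of listed fragments on the gene with most fragments, that on the 20 genes with most fragments, and the slope of each library on the difference between pellet and total RNA of the other 5. Black marks give the mean and SD. The groups overlap in every panel, and libraries 9 and 10 share the lowest slopes, 0.714 and 0.709.

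The pellet was more variable than total RNA in both treatments. Among genes with a mean of at least 100 fragments, the median coefficient of variation between the 3 libraries of a group was 14.7% for Aβ pellet and 20.6% for vehicle pellet. It was 7.31% for Aβ total and 7.29% for vehicle total. Counting alone would give 3.77 to 4.33%, so the spread in the pellet was well above that of counting. The comparison of Aβ with vehicle in total RNA was accordingly finer, with a median standard error of 0.10. It gave 0 of 12311 genes (0%) at the adjusted threshold and 182 at an unadjusted p under 0.05 by limma, or 785 with the runs as a block. The interaction tests whether the difference after Aβ was unlike in the 2 fractions. It gave 0 of 12150 genes (0%) at the adjusted threshold and 84 at an unadjusted p under 0.05 by limma, or 309 with the block. Neither fit paired a pellet library with the total RNA library of the same run and treatment. Of the 37 pellet genes with an unadjusted p under 0.05, 36 were tested in total RNA too. There 14 had the same direction and 3 an unadjusted p under 0.05 by limma, against 1.48% of all genes tested in total RNA.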

How the data were processed

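RNA of rat cortical neurons was sequenced in 12 libraries, of which the 6 ribosome pellet libraries (3 Aβ, 3 vehicle) were compared. The authors made polyadenylated RNA libraries, called bases with CASAVA 1.8, aligned paired-end reads with TopHat 2.0.12 on a Bowtie 2.2.3 index, counted fragments with HTSeq 0.6.1 in union mode and deposited FPKM, neither scaled between libraries nor pooled. The genome build and annotation version are not given in the sources used here. Groups came from the labels; dose, time and culture age came from the study's methods. The last row of the table was incomplete and was dropped (1 row). Later rows may be missing, so counts of genes cover those listed. For differential expression the authors ran DESeq, whose results are not used here.

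Median-of-ratios size factors (0.926 to 1.1) scaled the FPKM between libraries. The 11792 genes that averaged at least 1 FPKM entered limma 3.58.1 (R 4.3.3) as log2(scaled FPKM + 1), using lmFit, a trended eBayes and Benjamini-Hochberg adjusted p-values at a threshold of 0.05. The steps between the low FPKM of a gene reflect single fragments. Whole fragments (within 0.003) fitted the FPKM of 11792 of these genes, and whole transcript lengths (within 0.05 bases) came out for 11791. The gene without a whole length was above 0 in 1 pellet library, and its fragments were not taken as recovered. It was left out of counts by length and fragments. For a gene seen in few libraries the recovered numbers can be a fraction of the true ones. The recovery of depths and fragments and the limma fits were tested on simulated data. These covered genes that averaged at least 1 FPKM, without the shortest transcripts and without differences between runs. Recovered lengths were not scored. Total RNA was fitted alike, and the interaction over all 12 libraries. Single values were compared by exact permutation tests. Python 3.11.15, numpy 2.4.6, pandas 2.3.3, scipy 1.17.1 and matplotlib 3.10.9 were used.

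The runs of consecutive numbers were checked as pairs. Deviations from the group means had r of 0.41 (libraries 1 and 2), 0.52 (5 and 6) and 0.70 (9 and 10), against -0.52 to 0.11 for other pairings, so the run was treated as a block in an alternative.

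The comparison, its lists and tests were chosen with earlier results of these data known. Identifiers could not be matched to symbols, so the rule for naming reduced to the 2 higher and 2 lower with the smallest unadjusted p, and the gene lists and summed marker levels were not computed. Alternatives were unscaled FPKM, upper-quartile scaling (75th percentile), no filter or a minimum mean of 5 FPKM, a pseudocount of 0.1, eBayes without trend, the replicate block, each library left out, array weights, one fit of 12 libraries (with and without the block) and voom weights on whole fragments. Added after seeing the data were each run left out, removal of the length trend (with and without the block), at least 10 fragments in total, and an exact test of run differences for the measures of composition.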

Additional observations from a re-analysis of the deposited data

How the results depend on the processing

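In the pellet 0 genes passed the adjusted threshold under each of 23 alternatives, including the replicate block by run and every library left out (0 to 0). The number at an unadjusted p under 0.05 moved from 37 to 162 without a filter and to 12 with a mean FPKM of at least 5. It was 142 with the replicate block, 372 with array weights, 178 in one fit of 12 libraries, 627 in that fit with the block, and 11 with voom weights. The fits of 12 libraries take 1 spread from both fractions, although total RNA varied less than the pellet. Their median standard error was 0.18, or 0.12 with the block, against 0.22 and 0.15 in the pellet alone. The unadjusted count was 28 to 254 with 1 library left out: 61 without library 5, 84 without library 9, 85 without library 6 and 254 without library 10. In the alternatives added after seeing the data it was 85 without libraries 9 and 10, and 157 with the length trend removed and the block. The cause was not tested. In total RNA the adjusted count of 0 became 0 to 1 with 1 library left out (1 without library 8 and 1 without library 12), and the unadjusted count of 182 ran from 113 to 785. For the interaction the adjusted count of 0 became 1 without a filter and 0 to 1 with 1 library left out (1 without library 8), and the unadjusted count of 84 ran from 43 to 883. The replicate block changed no adjusted call in any of the 3 comparisons. The 4 identifiers kept their direction under every alternative that could be fitted, and 0 reached an adjusted p under 0.05. Their groups did not overlap in the pellet, so leaving out libraries, weighting or blocking could not have reversed the direction. The kept direction is therefore no separate support. The log2 difference of ENSRNOG00000035467 ran from -3.11 with a pseudocount of 0.1 to -1.22, and that of ENSRNOG00000049846 from 1.0 with array weights to 2.83 with a pseudocount of 0.1. Those of ENSRNOG00000046021 ran from -2.78 to -1.66 and of ENSRNOG00000049513 from 0.52 to 0.83. The first 2 had no value with a mean FPKM of at least 5. The alternatives for gene lists were not run, because no identifier was paired with a name. With 3 libraries a group, differences under about 0.52 on the log2 scale, or 0.38 with the block, lie within the interval of a typical gene. Transcripts with a few fragments are limited by counting error.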
